A study of Mus musculus with 6 samples.

Results

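The imprinted Dlk1-Dio3 cluster of mouse chromosome 12 was examined through its 6 best-known long transcripts, Dlk1, Meg3, Rtl1, Rian, Mirg and Dio3. The genes were chosen by symbol, after their reads in these libraries were known, from the 55471 gene identifiers of the count tables. All 6 were among the 15091 genes with enough sense reads to be tested. Their differences between the groups are therefore given as descriptions, without a test. Imprinted genes are expressed mainly from 1 parental copy, under the control of a mark set in the germ line, often methylation. In this cluster Dlk1, Rtl1 and Dio3 are expressed mainly from the paternal chromosome. Meg3, Rian and Mirg form a train of noncoding RNAs read from the maternal chromosome in 1 direction, which also carries many microRNAs and small nucleolar RNAs. The read counts do not separate the parental copies, so the parental names used here are background and not measurements.

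The series compared mouse epiblast stem cells, pluripotent cells akin to those of the gastrulating embryo, that were Mixl1 KO (3 libraries) or Mixl1 induced (3 libraries). Mixl1 is a homeobox gene active in the primitive streak, where mesoderm and endoderm arise. All cells had been maintained over irradiated fibroblasts of mouse embryos, in medium containing 10 ng/mL of bFGF and 20 ng/mL of Activin A, and were collected as embryoid bodies after 2 days of differentiation in serum. The induced cells carried inducible Mixl1 and had doxycycline at 1 µg/mL for their last 24 h. The labels give no strain, parent line, clone number or deleted part of Mixl1, and do not say whether the KO cells had doxycycline. Line, Mixl1 and drug thus cannot be told apart in any difference given here. The samples are named triplicates without mention of separate cultures, so the spread between them may be technical.

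Sense reads on genes numbered 17490426 to 21026423 per library, and 3.71% to 3.80% of the stranded reads on genes fell on the opposite strand. Mixl1 itself had 817, 668 and 812 sense reads in the KO libraries and 8860, 7720 and 7861 in the induced libraries. Of the genes tested, 9450 differed between the groups (edgeR quasi-likelihood test, adjusted p of 0.05), so changes were common across the genome. Levels are given as CPM, sense reads per 1000000 after scaling of the libraries, with the SD over 3 libraries. The cell type was checked against 9 epiblast markers, which had summed levels of 1954 to 2074 CPM in the KO libraries and 1460 to 1497 CPM in the induced libraries. Of the 9, 4 rose and 5 fell, where 31% of all genes tested rose and 31.6% fell. Among pluripotency factor genes, Pou5f1, which makes up most of the sum, was at 1294 ± 44.5 CPM in the KO and 807.1 ± 21.7 CPM in the induced libraries, Nanog at 161.3 ± 2.58 and 53.5 ± 4.45 CPM, and Sox2 at 51.7 ± 3.46 and 187.6 ± 6.72 CPM (SD, n = 3).

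Of the 6 members, 3 were lower in the induced libraries, 2 were higher, and Dlk1 overlapped between the groups. For 5 of the 6 members the KO and induced libraries did not overlap, as was the case for 67.1% of all genes tested. At an adjusted p of 0.05, 62.6% of all genes tested were called, 31% higher and 31.6% lower. The members were picked for this contrast, so nothing is read from their count against these shares. Mirg was retained by the filter on low counts through the KO libraries (3 of 3, and 1 of 3 induced), and Rtl1 through the induced libraries alone. The other 4 members passed in all libraries.

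**Figure D1:**
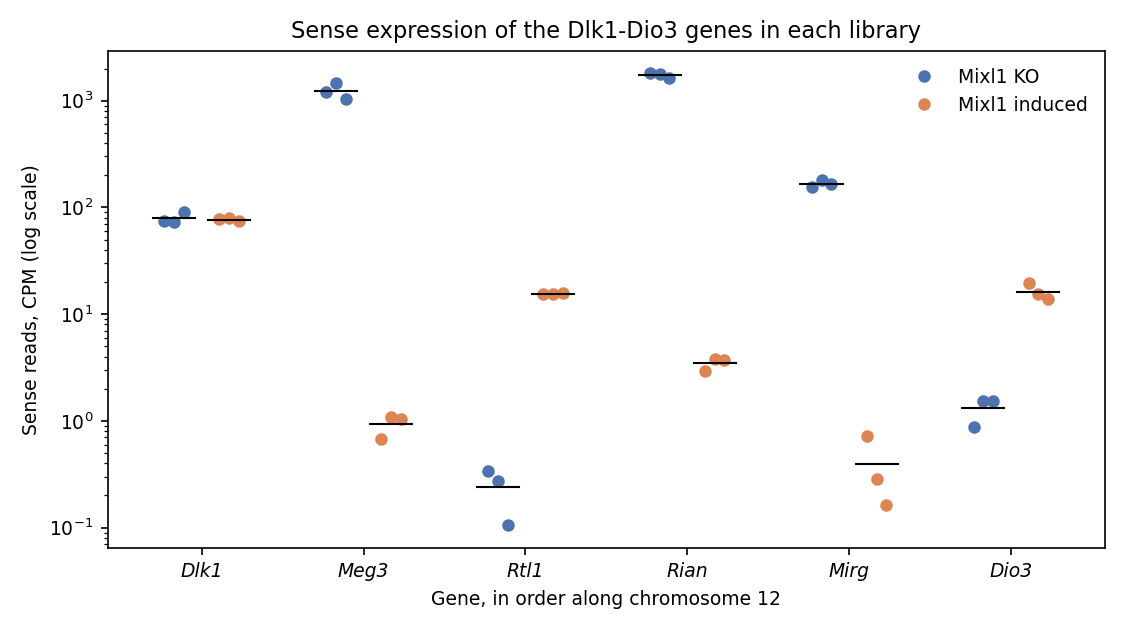
Sense expression of the 6 members in CPM on a log axis, with 1 point per library and a line at each group's mean (3 libraries per group). Meg3, Rian and Mirg sit at 156.6 to 1803 CPM in the KO libraries and under 4 CPM in the induced libraries, Rtl1 and Dio3 sit higher in the induced libraries, and Dlk1 overlaps.

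Meg3 is the first gene of the maternal train, a long noncoding RNA that stays largely in the nucleus. It lies at chr12:109541001-109571726 of GRCm38, on the plus strand (ENSMUSG00000021268.17). Its start is shown because the train begins there and because the methylation mark of the cluster spreads over it on the silent paternal copy. The 300 bases below run from chr12:109540746-109541045 on the plus strand, taken from RefSeq (GRCm38.p6). Capitals mark, in order, the hexamer of the imprint keeper ZFP57 (GCGGCA, the reverse complement of TGCCGC), a cAMP response element (TGACGTCA) and a TATA box core (TATAAA, found on both strands with an overlap).
Meg3 start region: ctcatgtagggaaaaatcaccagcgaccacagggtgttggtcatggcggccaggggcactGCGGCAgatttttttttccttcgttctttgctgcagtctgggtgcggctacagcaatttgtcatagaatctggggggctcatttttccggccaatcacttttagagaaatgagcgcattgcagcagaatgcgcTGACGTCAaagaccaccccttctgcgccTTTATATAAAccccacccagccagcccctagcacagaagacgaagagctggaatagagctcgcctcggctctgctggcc
The window holds 13 CG dinucleotides, against a median of 7 over 32851 RefSeq windows of this length. Searched on both strands, TGACGTCA occurred in 1.79% of those windows, TGCCGC in 11.6% and TATAAA in 13.6%. The matches describe the letters and do not show that a factor was bound.

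Meg3 had 24765, 26625 and 19857 sense reads in the KO libraries, which is 1208, 1467 and 1045 CPM. It had 14, 19 and 19 reads in the induced libraries, which is 0.675, 1.09 and 1.04 CPM. Every KO library was high and every induced library was close to nothing. The means were 1240 ± 213 and 0.933 ± 0.225 CPM (SD, n = 3), a 1330-fold difference, with a log2 fold change of induced over KO of -10.39 (SE 0.25). Among all genes tested, only 1 had a lower log2 fold change. In bulk RNA, fewer cells that express a gene and less of its RNA per cell cannot be told apart, and this holds for every level given here.

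Rian, the next noncoding gene of the train, is the host of many box C/D small nucleolar RNAs and of microRNAs. It lies at chr12:109603940-109661716 on the plus strand (ENSMUSG00000097451.11). Its sense reads numbered 36954, 32217 and 31216 in the KO libraries and 61, 66 and 68 in the induced libraries. The levels were 1803, 1775 and 1643 CPM against 2.94, 3.77 and 3.71 CPM. Rian was the member with most reads and the steadiest of the train in the KO libraries, with an SD of 4.91% of its mean against 17.2% for Meg3. The means of 1740 ± 85.4 and 3.48 ± 0.464 CPM (SD, n = 3) differed 501-fold, and the log2 fold change was -8.98 (SE 0.08).

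Mirg, the last named noncoding gene of the train, is the host of a dense group of microRNAs. It lies at chr12:109729764-109749460 on the plus strand (ENSMUSG00000097391.8). The KO libraries held 3211, 3262 and 3116 sense reads (156.6, 179.8 and 164.0 CPM). The induced libraries held 15, 5 and 3 reads (0.723, 0.286 and 0.164 CPM), so the induced level rests on few reads. The means were 166.8 ± 11.8 and 0.391 ± 0.294 CPM (SD, n = 3), a 427-fold difference with a log2 fold change of -8.66 (SE 0.14). Without induced replicate 1, which held 15 of the 23 reads, the log2 fold change was -9.50.

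Summed, the 3 noncoding genes took 64930, 62104 and 54189 reads in the KO libraries, 0.317%, 0.346% and 0.286% of all sense reads on genes. They took 90 reads in each of the induced libraries. The drop was not of 1 size along the train. Rian had 1.43 ± 0.190 reads for each Meg3 read in the KO libraries and 3.80 ± 0.483 in the induced libraries (SD, n = 3), and the 2 sets of ratios did not overlap. The pooled ratios were 1.41 (95% counting interval 1.40 to 1.42) and 3.75 (2.75 to 5.20). The Mirg reads for each Rian read overlapped between the groups, with pooled ratios of 0.0955 (0.0935 to 0.0975) and 0.118 (0.0730 to 0.182).

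Other annotated genes lay in the same stretch. Between the start of Dlk1 and the end of Dio3, over 828.275 kb, GENCODE M21 annotates 118 genes, of which 116 are in the count tables and 110 are not members. These 110 included 67 microRNA and 23 small nucleolar RNA genes, and 66 of the 110 had no sense read in any library. The libraries were made from polyadenylated RNA, so a read on a microRNA or small nucleolar RNA gene comes from a longer RNA that spans it, not from the mature small RNA. Reads that also overlap an exon of a host gene on the same strand were ambiguous and were not counted for either gene.

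Outside Rtl1, 76 microRNA and small nucleolar RNA genes lie on the plus strand of the interval. They held 57, 66 and 40 sense reads in the KO libraries, on 28 of the genes, and 0 in the induced libraries. Examples were Mir453, with 10, 9 and 11 reads in the KO libraries, the small nucleolar RNA gene Gm24564, with 13, 30 and 8, and Mir3072, with 6, 6 and 5. The plus-strand genes Gm37899 (7, 6 and 9 reads in the KO libraries, none in the induced) and B830012L14Rik followed the same course. B830012L14Rik, the only one of these that passed the filter, had 32, 27 and 36 sense reads in the KO libraries and 0 in each induced library. Its level in the KO libraries was 1.65 ± 0.217 CPM (SD, n = 3), at least 10.3-fold higher than in the induced libraries, taking 3 reads in each induced library as the limit that a count of 0 allows. It passed the filter through the KO libraries alone, where it is high, so no test of it is given. The pseudogene Gm3379 had 10, 6 and 5 reads in the KO libraries and 10, 14 and 14 in the induced libraries, and the lincRNA gene Gm34081, on the minus strand between Dlk1 and Meg3, had 9, 10 and 13 against 4, 1 and 1.

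MicroRNAs recognise messages mainly by their seed, bases 2 to 8. RefSeq (GRCm38.p6) gives 114 mature microRNAs from 61 genes of the interval, with 104 distinct seeds, so most seeds occur once. Of the 9 seeds shared by a pair, the 2 pairs below come from plus-strand hairpins between Rian and Mirg and are shown because they let the small RNAs of the train be compared. Capitals mark the seed, GGUAGAC in the first pair and UGGAUAU in the other. Of their genes, Mir1193 had 2 sense reads and Mir376c 1 over the KO libraries, and Mir379 and Mir376b had none.
miR-379-5p: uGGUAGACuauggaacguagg
miR-1193-5p: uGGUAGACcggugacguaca
miR-376b-5p: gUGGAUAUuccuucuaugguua
miR-376c-5p: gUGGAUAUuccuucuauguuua

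Rtl1 is a protein-coding gene derived from a retrotransposon and is needed in the fetal vessels of the placenta. It lies at chr12:109589193-109600330 on the minus strand (ENSMUSG00000085925.3), opposite to the noncoding train and between Meg3 and Rian. The plus strand there carries 6 microRNA genes, so their mature microRNAs are exact complements of the Rtl1 message. Of the mature microRNAs listed, 11 from these 6 hairpins had a full complement in the Rtl1 transcript (6358 bases), all 11 in its coding sequence. None of those from outside Rtl1 had one. One strand of each hairpin is shown with its site in Rtl1, written 5′ to 3′, because the strands of this stretch carry the result that follows. Capitals mark the seed.
miR-431-5p: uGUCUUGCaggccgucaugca
Rtl1 site for miR-431-5p: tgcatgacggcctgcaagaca
miR-433-3p: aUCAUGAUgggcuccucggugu
Rtl1 site for miR-433-3p: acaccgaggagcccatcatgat
miR-127-3p: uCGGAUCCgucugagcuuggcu
Rtl1 site for miR-127-3p: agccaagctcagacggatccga
miR-434-3p: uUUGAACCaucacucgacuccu
Rtl1 site for miR-434-3p: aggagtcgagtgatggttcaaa
miR-432: uCUUGGAGuagaucagugggcag
Rtl1 site for miR-432: ctgcccactgatctactccaaga
miR-136-5p: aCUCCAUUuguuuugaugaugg
Rtl1 site for miR-136-5p: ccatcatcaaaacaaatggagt

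Sense reads of Rtl1 numbered 7, 5 and 2 in the KO libraries and 320, 269 and 288 in the induced libraries. The levels were 0.341, 0.276 and 0.105 CPM against 15.4, 15.4 and 15.7 CPM. All induced libraries were high and within a narrow range, and the groups did not overlap. The means of 0.241 ± 0.122 and 15.5 ± 0.190 CPM (SD, n = 3) differed 64.4-fold, and the log2 fold change was 5.96 (SE 0.21).

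On the opposite strand the picture was reversed. The KO libraries held 263, 214 and 230 reads antisense to Rtl1, and the induced libraries held 0, 0 and 0. Antisense reads made up 97.4% (95% Wilson interval 94.7% to 98.7%), 97.7% (94.8% to 99%) and 99.1% (96.9% to 99.8%) of the stranded Rtl1 reads in the KO libraries. In the induced libraries a count of 0 allows shares of up to 0.938%, 1.12% and 1.04%. The counts do not tell PCR copies from separate molecules, so these intervals and limits, like those of the ratios above, cover counting error only. The antisense level was 12.2 ± 0.532 CPM (SD, n = 3) in the KO libraries, at least 76.5-fold higher than in the induced libraries with 3 reads taken for each count of 0.

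Counted without strand, the gene looked alike in the groups. Unstranded reads numbered 246, 196 and 202 in the KO libraries and 254, 194 and 234 in the induced libraries. An edgeR fit of these unstranded reads gave Rtl1 a log2 fold change of 0.12, and the authors' deposited table lists 0.12 (SE 0.13). For the other members the authors' deposited table lists log2 fold changes close to those of the sense reads, with Meg3 at -10.16, Rian at -8.96, Mirg at -8.68, Dlk1 at -0.05 and Dio3 at 3.65.

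**Figure D2:**
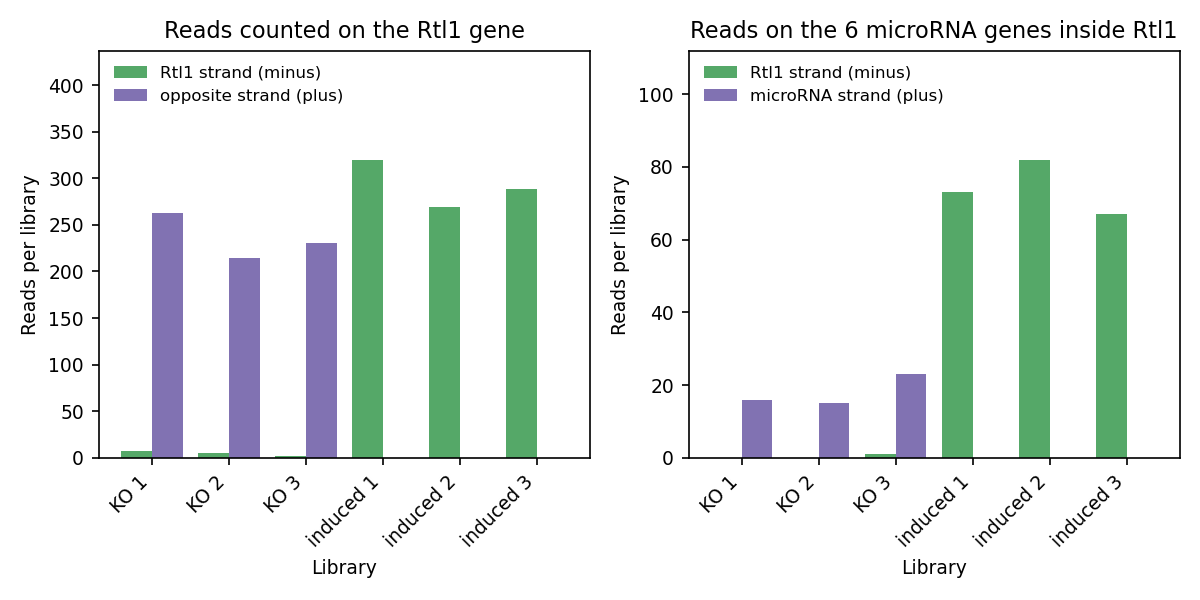
Reads per library on each strand of Rtl1 (left) and, summed, of the 6 microRNA genes inside it (right), as bars from 0 with 1 pair per library. In the KO libraries nearly all reads are on the plus strand, and in the induced libraries all counted reads are on the minus strand.

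The 6 microRNA genes inside Rtl1 showed the same strands. Mir431, Mir433, Mir127, Mir434, Mir432 and Mir136 together held 16, 15 and 23 reads on their own strand in the KO libraries and 0 in the induced libraries. On the Rtl1 strand they held 0, 0 and 1 reads in the KO libraries and 73, 82 and 67 in the induced libraries. A fragment in these hairpins is counted for the microRNA gene on one strand and for Rtl1 on the other. These reads are thus partly the reads already given for Rtl1 and no separate measurement. Mir434 had most on its own strand, 17 reads over the KO libraries, and Mir433 and Mir127 had 14 each. The microRNA strand of this stretch is shown by the sequences printed above for miR-127-3p and its neighbours, and the Rtl1 strand by their sites.

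Such a change of strand was rare, under limits that were set with the reads of Rtl1 known and are no test of it. Among 14688 genes with at least 50 stranded reads in each group, 2 had at least 90% antisense reads in all libraries of 1 group and at most 10% in all of the other, Rtl1 and the homeobox gene Nkx6-2, which was named after its values were seen. Nkx6-2 had 107, 88 and 73 antisense reads in the KO libraries and 97, 68 and 68 in the induced libraries, while its sense reads went from 3, 2 and 1 to 1272, 1105 and 1049. Its antisense reads were thus present in both groups, where those of Rtl1 were found in the KO libraries alone. Of the other members, Dlk1, Rian and Mirg had at most 1.61% antisense reads in any library and Dio3 had none. Meg3 had 21, 11 and 10 antisense reads in the KO libraries, at most 0.085% of its stranded reads. It had 4, 5 and 0 in the induced libraries, which is 22.2%, 20.8% and 0% of its few reads there.

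Dlk1, at the other end of the cluster, encodes a membrane protein of the NOTCH ligand family that lacks the domain by which ligands activate the receptor. It lies at chr12:109452823-109463336 on the plus strand (ENSMUSG00000040856.17). It had 1532, 1334 and 1723 sense reads in the KO libraries and 1599, 1383 and 1357 in the induced libraries. The levels, 74.7, 73.5 and 90.7 CPM against 77.1, 79.0 and 74.1 CPM, overlapped. The means were 79.6 ± 9.58 and 76.7 ± 2.48 CPM (SD, n = 3), with a log2 fold change of -0.05 (SE 0.07). The difference was smaller than the spread between the KO libraries, where replicate 3 was highest for Dlk1 and lowest for Meg3.

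Dio3, at the distal end, encodes the deiodinase that inactivates thyroid hormone and shields fetal tissue from it. It lies at chr12:110279068-110281097 on the plus strand (ENSMUSG00000075707.5). Its start is printed as that of a member with the course opposite to the noncoding train. The RefSeq window (GRCm38.p6), chr12:110278980-110279279 on the plus strand, holds 25 CG dinucleotides and 1 TATA box core, in capitals.
Dio3 start region: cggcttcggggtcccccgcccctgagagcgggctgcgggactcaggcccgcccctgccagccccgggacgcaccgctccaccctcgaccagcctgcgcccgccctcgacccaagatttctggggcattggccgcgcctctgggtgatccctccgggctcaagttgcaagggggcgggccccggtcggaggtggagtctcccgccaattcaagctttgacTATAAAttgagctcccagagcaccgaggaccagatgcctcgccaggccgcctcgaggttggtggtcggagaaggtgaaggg
Dio3 had 18, 28 and 29 sense reads in the KO libraries (0.878, 1.54 and 1.53 CPM) and 403, 270 and 254 in the induced libraries (19.4, 15.4 and 13.9 CPM). The induced libraries were all above the KO libraries. The means of 1.32 ± 0.379 and 16.2 ± 2.87 CPM (SD, n = 3) differed 12.3-fold, and the log2 fold change was 3.64 (SE 0.19).

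Dio3os, a noncoding gene that starts beside Dio3 and runs the other way (chr12:110275385-110278172, minus strand), was higher as well. It had 2, 2 and 1 reads in the KO libraries and 34, 24 and 27 in the induced libraries. Its level went from 0.0868 CPM to 1.49 ± 0.135 CPM (SD, n = 3), and its log2 fold change was 4.01 (SE 0.44). It passed the filter through the induced libraries alone, where it is high, so no test of it is given. Its own 300-base start window holds 53 CG dinucleotides.

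Levels of different genes were compared per kb of exon. In the KO libraries the order was Rian at 95.5 ± 4.68 CPM per kb, Meg3 at 68.6 ± 11.8, Mirg at 22.9 ± 1.62, Dlk1 at 14.1 ± 1.69, Dio3 at 0.648 ± 0.187 and Rtl1 at 0.0379 ± 0.0192 (SD, n = 3). No neighbours in this order overlapped between libraries. In the induced libraries Dlk1 led at 13.6 ± 0.439 CPM per kb, followed by Dio3 at 8.0 ± 1.4, Rtl1 at 2.44 ± 0.0299, Rian at 0.191 ± 0.0254, Mirg at 0.0536 ± 0.0403 and Meg3 at 0.0516 ± 0.0124 (SD, n = 3). Mirg and Meg3 did not differ beyond their spread there. Among all genes tested, Rian went from percentile 97.1 of the level per kb to percentile 6.01, and Dio3 from 15.9 to 61.2.

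**Figure D3:**
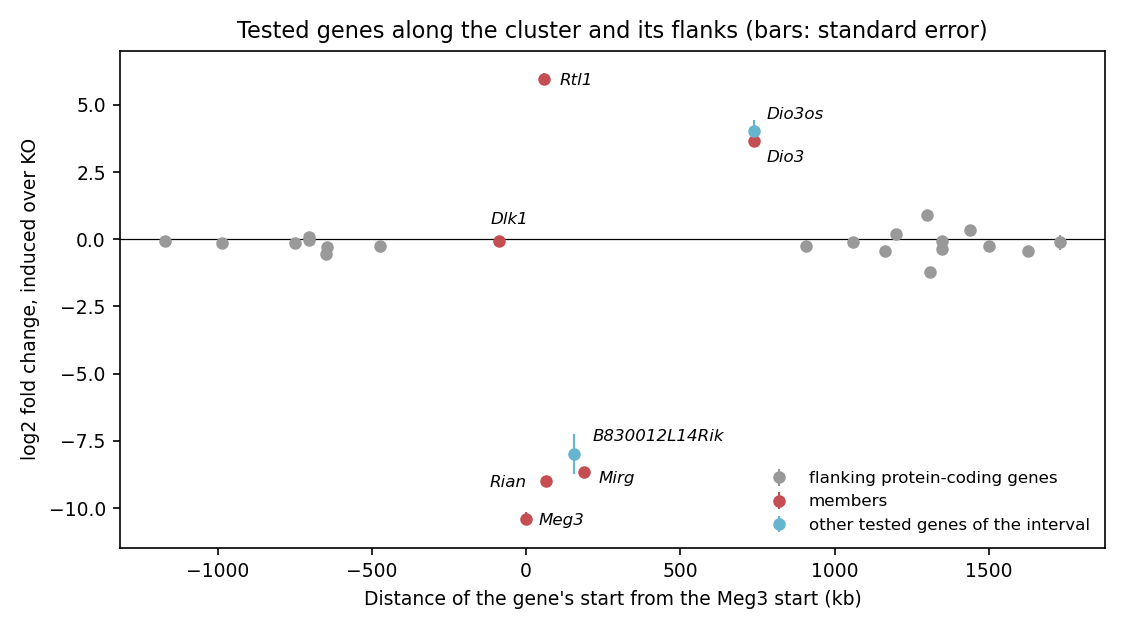
log2 fold change, induced over KO, of tested genes against the distance of their start from the start of Meg3 in kb, with bars for the standard error. The noncoding members and B830012L14Rik lie near -8 to -10, Rtl1, Dio3 and Dio3os lie above 3, and the flanking genes lie between -1.20 and 0.92; the value of B830012L14Rik, at 0 reads in the induced libraries, depends on the prior count of the fit.

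Genes beside the cluster had log2 fold changes between -1.20 and 0.92. Within 1 Mb of either end, 20 protein-coding genes were tested, of which 3 rose and 10 fell. Their median log2 fold change was -0.13, against 0.0038 over all genes tested. As a base for this list and those below, 31% of all genes tested rose and 31.6% fell. The nearest tested neighbour on the Dlk1 side, Begain, a gene of neuronal synapses 384.606 kb away, was at 10.1 CPM in the KO and 8.57 CPM in the induced libraries and did not pass (log2 fold change -0.24, SE 0.12; edgeR adjusted p = 0.0821). On the Dio3 side, Ppp2r5c, a regulatory subunit gene of protein phosphatase PP2A 166.023 kb away, fell from 213.9 to 177.9 CPM (log2 fold change -0.27, SE 0.04; edgeR adjusted p = 2.30e-05). The flanking genes with the smallest p were the zinc-finger gene Zfp839, the chaperone gene Hsp90aa1 and the kinase gene Mok, with log2 fold changes of -1.20, -0.42 and 0.92. Over all of chromosome 12 outside the interval, 161 of 558 tested genes rose and 184 fell, with a median of -0.03.

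Regulators of the imprint were listed beside the members, from genes that set, keep or remove methylation to Polycomb genes. Of 17 tested, 4 rose and 3 fell, with a median log2 fold change of 0.06. Zfp57, whose zinc-finger protein protects imprints from erasure, rose from 102.6 ± 11.1 to 261.1 ± 4.67 CPM (SD, n = 3; edgeR adjusted p = 2.71e-13). Jarid2, a partner of Polycomb repressive complex PRC2, and Tet3, which oxidises methylcytosine, rose by log2 fold changes of 0.55 and 0.72. The de novo methyltransferase genes Dnmt3a and Dnmt3b were among those that fell (log2 fold changes -0.54 and -0.53; named after their values were seen). Trim28, the corepressor that ZFP57 recruits, did not pass, at 1575 and 1472 CPM.

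Other imprinted genes moved in both directions. Of 29 tested, 9 rose and 11 fell, with a median log2 fold change of -0.01 and a range from -10.86 (the paternally expressed Slc38a4) to 10.13 (H19). H19 passed the filter on low counts only with the induced libraries, where it is high. Slc38a4, Airn, Kcnq1 and Peg13 passed it through the KO libraries alone, where they are high. These genes are in the counts of this paragraph, and their calls are not read as tests. Maternally expressed genes numbered 2 higher and 5 lower of 10 tested, and paternally expressed genes 7 higher and 6 lower of 19. H19, a maternally expressed noncoding RNA, rose from 0.719 ± 0.200 to 804.2 ± 32.7 CPM (SD, n = 3), opposite in sign to the maternal RNAs of the Dlk1-Dio3 cluster. Grb10, an adaptor gene also listed as maternally expressed, fell from 689.4 ± 24.7 to 3.31 ± 0.104 CPM (SD, n = 3), the same sign as those RNAs. The paternally expressed Mest rose from 279.7 ± 12.3 to 2965 ± 245 CPM (SD, n = 3). The larger adjusted p of Grb10 and Mest was 1.16e-20 (edgeR quasi-likelihood test), and no test of H19 is given.

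Genes that work with the protein-coding members were also listed. Of 13 NOTCH receptors, ligands and targets tested beside Dlk1, 6 rose and 5 fell (median log2 fold change 0.07). The ligand gene Jag1 rose by 2.28, the receptor gene Notch1 by 1.04 and the target gene Hey1 by 1.69 on the log2 scale. Of 7 tested genes of thyroid hormone handling beside Dio3, 1 rose and 3 fell (median -0.13). Slc16a10, an amino acid and thyroid hormone transporter gene, fell from 50.6 ± 8.10 to 11.6 ± 1.77 CPM (SD, n = 3), the receptor gene Thra was at -0.31, and the selenium gene Sephs2, which serves selenoproteins such as the deiodinases, was at 0.22. The other deiodinase genes Dio1 and Dio2 had too few reads to be tested.

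Of 7 tested relatives of Rtl1 from the same retrotransposon family, 1 rose and 4 fell (median log2 fold change -0.91). Among those that fell, Rtl9 passed the filter through the KO libraries alone, where it is high, so its call is not read as a test. Rtl8b and Rtl8c, which are similar copies whose shared reads were dropped, were at -1.58 and -1.59, while Rtl6 rose from 3.48 to 16.2 CPM. Peg10, an imprinted relative picked with its value known, had levels of 2424 ± 195 and 2411 ± 199 CPM (SD, n = 3) and did not pass. Of 11 tested microRNA processing genes, 3 rose and 3 fell (median -0.04). Lin28a and Lin28b, which block the maturation of let-7 microRNAs, rose by 0.87 and 1.01 on the log2 scale, and the Argonaute gene Ago2 fell by 0.33. Xpo5, which exports hairpins from the nucleus, had levels of 228.5 and 220.1 CPM and did not pass; it too was picked with its value known.

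**Figure D4:**
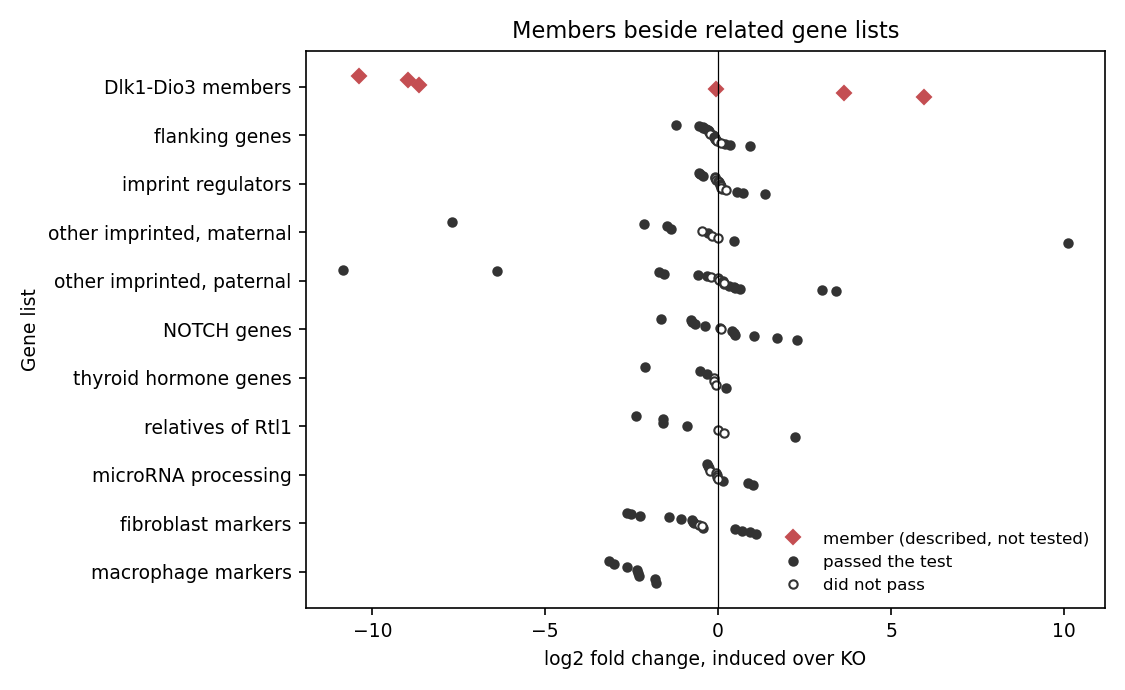
log2 fold change, induced over KO, of every tested gene in each list, with filled points for genes past the edgeR threshold, open points for the rest and diamonds for the 6 members, which were not tested. Flanking genes and imprint regulators lie within -1.20 and 1.35, while single imprinted genes of other chromosomes reach the size of the members in both directions.

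Markers of other cell types moved with the groups. The 16 fibroblast markers, relevant because the cells had been kept on embryonic fibroblasts, had summed levels of 1417 to 1691 CPM in the KO and 1011 to 1247 CPM in the induced libraries. Of 15 tested, 4 rose and 9 fell, and none was without reads. All 8 tested macrophage markers of 9 fell, from a sum of 310.9 to 448.4 CPM to a sum of 46.1 to 56.9 CPM, and none was without reads in all libraries. Lyz2 makes up most of the macrophage sum in both groups, at 311.2 ± 54.9 and 34.7 ± 3.65 CPM (SD, n = 3). Ptprc passed the filter through the KO libraries alone, where it is high, so its call is not read as a test. The fibroblast and macrophage sums stayed above 0 in the induced libraries. The part of such cells in the members' levels was not tested.

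The profile of Rian over the 6 libraries was set beside that of 9720 genes with a mean of at least 10 CPM. Its nearest genes by Pearson's r of log2 CPM were Snph (r = 0.9997), Ly6e (r = 0.9997) and Meg3 (r = 0.9997). As a description over 6 libraries in 2 groups this mostly restates the group difference, and 513 genes had an r over 0.99. Mirg was at rank 463 (r = 0.99) and Dlk1 had an r of 0.22.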

How the data were processed

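Measured were RNA-seq libraries of 6 samples, grouped and numbered by their titles. The mm10 build and the tools bcl2fastq, STAR and DESeq2 are named, per the submitters' processing notes, without versions; the annotation release is not given in the sources used here. Read counts per gene (unstranded, sense and antisense columns) were deposited by the authors. Their deposited DESeq2 table holds a mean normalised count (a signal), log2 fold changes and standard errors, Wald scores, p-values, and the −log10 of the adjusted p. Only its log2 fold changes and 1 standard error are quoted. Rows naming no gene (15.1% to 17.6% of reads) and multimapped reads were left out, which lowers genes with near-identical copies.

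Names, exon lengths and positions came from GENCODE M21 (GRCm38), matched without version to 55230 of 55471 identifiers. Sequences came from RefSeq tables (GRCm38.p6), in which no start window was matched to Rtl1. The sense counts entered edgeR 4.0.16 under R 4.3.3 (filterByExpr, TMM, robust quasi-likelihood fit with group as its only term, Benjamini-Hochberg adjustment, threshold 0.05, two-sided). The script was tested on simulated data. The standard error is the log2 fold change over the square root of F, with a median of 0.0837 over all genes tested. A count of 0 was taken to allow 3 reads. Members and lists were chosen with earlier results of these data known. Named beside the members were Mixl1, genes of the interval with at least 10 sense reads, the nearest tested neighbours, and up to 3 genes past the threshold with the smallest p per list. Genes named outside this rule are marked in part, with Trim28, Dio1, Dio2, Snph, Ly6e and microRNA genes with fewer reads among those unmarked.

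Alternatives were DESeq2 1.42.0 as test or size factors, upper-quartile factors, no filter, unstranded counts, a replicate block and leaving out each library.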

Additional observations from a re-analysis of the deposited data

How the results depend on the processing

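The signs of Meg3, Rian, Mirg, Rtl1 and Dio3 held under every alternative run, though for Rtl1 the difference was nearly lost in unstranded counts. Their log2 fold changes ranged from -10.50 to -10.18, -9.03 to -8.86, -9.50 to -8.30, 5.61 to 6.30 and 3.39 to 3.77, leaving aside unstranded counts. In unstranded counts, which ignore strand and leave out reads shared by genes of opposite strands, Meg3 was at -10.15 and Rtl1 at 0.12. Leaving out 1 library at a time gave -9.50 to -8.30 for Mirg. Dlk1 ranged from -0.11 to 0.05. The KO antisense share of Rtl1 was 110.0% when divided by unstranded reads, which leave out reads shared with the microRNA genes inside it. Of the other annotated genes of the interval, 2 were called, both through a filter passed in 1 group alone, against 14 with no filter (13 lower), 10 with the DESeq2 test (9 lower), and 2 to 5 when 1 library was left out, with 4 or 5 without an induced library, where more genes pass the filter. Begain passed without KO replicate 3 (-0.35, edgeR adjusted p = 0.0115). Genes called over the genome numbered 8568 (DESeq2) to 9932 (no filter), and 9647 with the replicate block. The numbers do not pair the samples by any label, and deviations of same-numbered samples correlated at -0.0026, 0.046 and 0.040; the block raised the genes called among imprint regulators from 7 to 9, other imprinted genes from 20 to 21, fibroblast markers from 13 to 14, thyroid hormone genes from 4 to 5 and chromosome 12 from 352 to 360. It left the counts of the other lists and the calls of the single genes refitted with it as they were. The induced levels of Meg3 and Mirg rest on 52 and 23 reads in all, which limits their fold changes.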
